A study of Sus scrofa with 6 samples.

Results

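The genes described here take up hexose sugars or carry fructose and sorbitol through their first enzymatic steps, with the fructose transporter SLC2A5 at their head. Members were taken from the expression table by gene name from a list of 10 symbols, and 8 of the 10 were found that way among 30477 genes. SLC2A3 carries no symbol in the table and was taken by the NCBI gene number in its description (ENSSSCG00000022925), which gave 9 genes, and SLC2A1 was not analysed here. The genes were chosen by a rule that compares their FPKM between the HFCF and the NC pigs, with results of that comparison known, so these values are given as a description, and no p-value is read for them.

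RNA of the abdominal aorta was sequenced from male Wuzhishan miniature pigs of 2 groups, with 1 library per pig and 3 pigs per group. The NC group ate normal chow, and the HFCF group ate the same chow with added shortening, egg yolk powder, cholesterol and fructose, for 6 months in both groups. The labels give an age of 3 to 4 months, while the methods give an older age at purchase. Fat, cholesterol and fructose were given together, so their parts in any difference cannot be told apart. The values are FPKM, fragments divided by the exon length of the gene and by the mapped reads of the library, which puts genes of unequal length on a common scale. A value is a share of its own library, and the FPKM of all genes summed to 272207 to 287141 in the NC pigs and to 330222 to 338690 in the HFCF pigs. For SLC2A5, SLC2A3, KHK and AKR1B1 the difference between the groups is therefore also given relative to the median of all genes. The piece of vessel wall holds several cell types, and in such bulk RNA more cells of a type and more RNA per cell cannot be told apart.

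Hexoses cross membranes through the SLC2A family of facilitative transporters, which run with the gradient, and through sodium-coupled SLC5A transporters. SLC2A5 is the specific fructose carrier, best known from the brush border of the small intestine. SLC2A3 is a high-affinity glucose carrier of neurons and leukocytes, SLC2A4 is the insulin-responsive carrier of muscle and fat, and SLC2A6 and SLC2A8 reside largely in intracellular membranes. Inside the cell, ketohexokinase (KHK) phosphorylates fructose, and triokinase (TKFC) phosphorylates the glyceraldehyde formed later in the pathway. In the polyol pathway, aldose reductase (AKR1B1) turns glucose into sorbitol and sorbitol dehydrogenase (SORD) turns sorbitol into fructose.

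Of the facts that concern all libraries, the depth relative to the first NC pig, read from the smallest steps between low values, was 1.09 and 1.37 in the other NC pigs and 1.02 to 1.07 in the HFCF pigs. The absolute depth is not known. Smooth muscle RNA was abundant in every pig, with ACTA2 between 3359 and 9145 FPKM. The macrophage list (11 of 12 markers found) summed to 48.4 to 60.1 FPKM in the NC pigs and to 704.5 to 1823 FPKM in the HFCF pigs, and all 11 passed the test as higher. The smooth muscle list (8 of 8 found) summed to 15914 to 22729 FPKM in the NC pigs and to 7997 to 12892 FPKM in the HFCF pigs, and 6 of its 8 genes passed as lower. The first HFCF pig stood apart in blood cell RNA, with a red blood cell list (5 of 6 found) of 2898 FPKM against 22.0 to 178.8 FPKM in the other 5 pigs and the highest sum of a neutrophil list (6 of 7 found). That list summed to 1.67 to 3.07 FPKM in the NC pigs and to 100.3, 13.7 and 6.63 FPKM in the HFCF pigs, without overlap, and 1 of its 5 tested genes, CSF3R, passed as higher. None of the markers of these 4 lists was at 0 in every pig. What these shifts contribute to the differences described next was not tested.

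SLC2A5 (ENSSSCG00000039651) was nearly absent from the aorta of NC pigs and readily measured in that of HFCF pigs. The NC pigs measured 0, 0.0749 and 0.151 FPKM. It was 27.8, 9.80 and 10.04 FPKM in the HFCF pigs. The lowest HFCF pig therefore lay far above the highest NC pig, and the first HFCF pig lay well above the other two. Normal chow thus gave a mean of 0.0752 ± 0.0754 FPKM and the HFCF diet 15.9 ± 10.3 FPKM (SD, n = 3 each), a ratio of 211. The NC mean behind this ratio lies near 0 and changes with single pigs, so the ratio is only a rough size. On the log2(FPKM + 0.1) scale the difference was 6.43 (standard error 0.51), which is 6.11 above the median of all tested genes, 0.32. Since the NC values are near or below the pseudocount, the difference depends on it and was 3.81 with a pseudocount of 1 and 8.08 with 0.01. Without the first HFCF pig, which carried the blood cell RNA, it was 5.94.

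**Figure D1:**
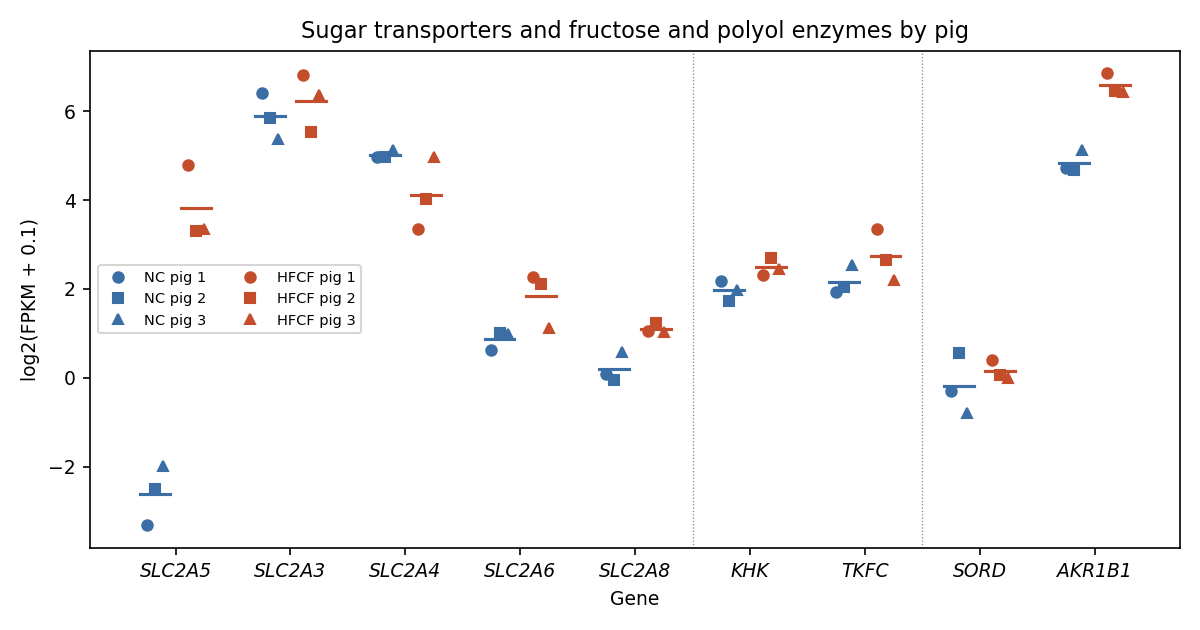
Level of each gene in each pig as log2(FPKM + 0.1) on the vertical axis, with NC pigs in blue, HFCF pigs in red, a marker shape per pig and a bar at the group mean of the log2 values. SLC2A5 shows the widest gap, from at most 0.151 FPKM in the NC pigs to at least 9.80 FPKM in the HFCF pigs, whereas SLC2A3 and SORD overlap between the groups.

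Among the other glucose carriers, SLC2A3 was the most abundant and differed little between the diets. It measured 85.8, 57.5 and 41.7 FPKM in the NC pigs and 112.7, 46.1 and 82.8 FPKM in the HFCF pigs. The groups overlapped, and both held pigs far apart from each other. The log2 difference was 0.35 (standard error 0.38), 0.03 above the median of all genes, and it turned to -0.0022 with median-ratio scaling. Removing single pigs moved it to between 0.07 and 0.71, the latter without the second HFCF pig.

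SLC2A4 (ENSSSCG00000023915) was the only one of the 9 genes with a lower mean in the HFCF group. It measured 31.1, 31.1 and 35.1 FPKM in the NC pigs and 10.04, 16.2 and 31.3 FPKM in the HFCF pigs. The third HFCF pig fell within the NC range, so the groups overlapped and the difference rested on the first and second HFCF pigs. The log2 difference was -0.91 (standard error 0.38), and removing single pigs moved it to between -1.34 and -0.52. The summed smooth muscle markers took the same order among the HFCF pigs, at 7997, 9537 and 12892 FPKM. In the NC pigs they did not, at 22729, 18252 and 15914 FPKM, and the pig with the lowest sum had the most SLC2A4. Per 100 FPKM of these markers, SLC2A4 measured 0.137, 0.171 and 0.220 FPKM in the NC pigs and 0.126, 0.170 and 0.242 FPKM in the HFCF pigs. The HFCF values spanned the NC values on this relative scale. Of the other tissues known for this carrier, the adipocyte list (6 of 6 found) summed to 50.1 to 300.8 FPKM in the NC pigs and 74.8 to 102.3 FPKM in the HFCF pigs, with 1 of 6 genes, PLIN4, lower. The skeletal muscle list (7 of 9 found) summed to at most 13.4 FPKM in any pig, and 0 of its 5 tested genes passed.

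Both intracellular carriers showed higher levels with the HFCF diet and no overlap, by small margins. SLC2A6 (ENSSSCG00000024166) measured 1.44, 1.904 and 1.89 FPKM in the NC pigs and 4.73, 4.24 and 2.07 FPKM in the HFCF pigs. The HFCF pig with the lowest value lay just above the NC range, and the log2 difference was 0.96 (standard error 0.34), or 0.43 with quantile normalization. SLC2A8 (ENSSSCG00000005610) measured 0.958, 0.863 and 1.40 FPKM in the NC pigs and 1.97, 2.25 and 1.93 FPKM in the HFCF pigs. Its HFCF pigs lay close together, and the log2 difference was 0.90 (standard error 0.26), or 0.26 with quantile normalization.

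Among SLC2A5, SLC2A3, SLC2A4, SLC2A6 and SLC2A8 alone, leaving out the other hexose transporters of the table, the share of SLC2A5 was larger with the HFCF diet. Of the summed FPKM of these 5 genes, SLC2A5 held 0, 0.0818 and 0.188% with normal chow and 17.7, 12.5 and 7.84% with the HFCF diet, with means of 0.0900 ± 0.0943% and 12.7 ± 4.93% (SD, n = 3 each). SLC2A3 held the largest share in all 6 pigs, from 52.0 to 71.9% in the NC group and from 58.7 to 71.7% in the HFCF group. The summed level itself was 80.2 to 119.3 FPKM in the NC pigs and 78.6 to 157.2 FPKM in the HFCF pigs, and these ranges overlapped.

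**Figure D2:**
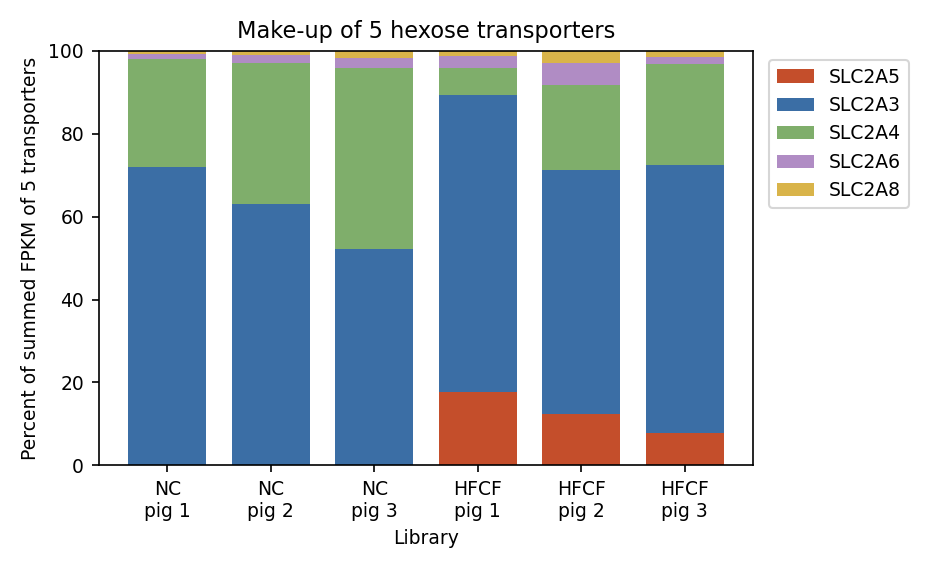
Percent of the summed FPKM of SLC2A5, SLC2A3, SLC2A4, SLC2A6 and SLC2A8 held by each transporter, one stacked bar per pig. SLC2A5 is not visible in the NC bars, at no more than 0.188%, and takes 7.84 to 17.7% of the HFCF bars.

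The fructose enzymes were expressed in both groups at a few FPKM. KHK (ENSSSCG00000008556) measured 4.46, 3.23 and 3.86 FPKM in the NC pigs and 4.90, 6.37 and 5.37 FPKM in the HFCF pigs. The groups did not overlap, although the gap between the nearest pigs was small. The log2 difference was 0.52 (standard error 0.20), 0.20 above the median of all genes, and it was 0.10 to 0.27 with the 3 scalings of the libraries. The table sums the transcripts of KHK, so its enzyme forms were not told apart. TKFC (ENSSSCG00000013087) measured 3.72, 4.02 and 5.67 FPKM in the NC pigs and 10.1, 6.21 and 4.52 FPKM in the HFCF pigs. The groups overlapped, and the log2 difference was 0.57 (standard error 0.32). It was 0.27 without the first HFCF pig, 0.84 without the third, and 0.20 to 0.32 with the 3 scalings.

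Of the polyol enzymes, aldose reductase had the next largest log2 difference of the 9 genes after SLC2A5. AKR1B1 (ENSSSCG00000040608) measured 26.3, 25.4 and 34.7 FPKM in the NC pigs and 115.8, 88.1 and 86.8 FPKM in the HFCF pigs. All HFCF pigs lay far above the highest NC pig, and the means were 28.8 ± 5.14 and 96.9 ± 16.4 FPKM (SD, n = 3 each). The log2 difference was 1.75 (standard error 0.19), 1.43 above the median of all genes, and lay between 1.39 and 1.89 over 15 alternative settings. SORD (ENSSSCG00000004679) measured 0.714, 1.38 and 0.474 FPKM in the NC pigs and 1.22, 0.950 and 0.895 FPKM in the HFCF pigs. All its HFCF values lay inside the NC range, and the log2 difference of 0.33 (standard error 0.39) turned to -0.32 with quantile normalization.

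Ordered by level over these genes and the other SLC2A genes of the table (16 genes), SLC2A5 took place 13 with normal chow and place 4 with the HFCF diet. In the NC group the order began with SLC2A3 (mean 61.7 FPKM), SLC2A4 (32.4 FPKM) and AKR1B1 (28.8 FPKM), of which the last pair overlapped. SLC2A5 overlapped there with its neighbours SLC2A13 (0.141 FPKM) and SLC2A9 (0.00436 FPKM). In the HFCF group the order began with AKR1B1 (96.9 FPKM) and SLC2A3 (80.5 FPKM), whose ranges overlapped. SLC2A4 (19.2 FPKM), SLC2A5 (15.9 FPKM) and TKFC (6.94 FPKM) followed, and each overlapped with the next.

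All 9 genes passed the filter on low values, a mean of at least 0.1 FPKM over the 6 pigs, SLC2A5 only through the HFCF pigs. By limma's moderated test with Benjamini-Hochberg adjustment over 15384 genes, 3 of the 9 had an adjusted p under 0.05, all higher in the HFCF group, where 28.9% of all tested genes passed in either direction and 22.8% as higher and 6.16% as lower. These 3 were SLC2A5, SLC2A8 and AKR1B1. Over all tested genes 3504 passed as higher and 948 as lower, against 2035 and 1982 with median-ratio scaling. The groups did not overlap in 5 of the 9 genes, all with HFCF higher, against 48.2% of all tested genes in either direction and 36.1% with HFCF higher. The ratio of the means was over 2 or under 0.5, the limits of the study, in 3 of the 9 genes (SLC2A5, SLC2A6 and AKR1B1). Of all tested genes, 25.5% met these limits together with an unadjusted p under 0.05 in limma. That rule is stricter than the ratio alone, so the count and the share are not on a like basis. The median log2 difference of the 9 genes was 0.57 and that of all tested genes 0.32. Since this contrast served to choose the genes, nothing is read from these counts.

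Other genes of hexose transport and metabolism, taken from 5 lists by function, were tested in the same fit. Of 59 listed genes 56 were found and 50 tested, and 16 of the 50 passed, 12 higher and 4 lower in the HFCF group. That is 32.0% of the tested genes against the 28.9% of all genes, so the lists as a whole passed about as often as any genes did. Their median log2 fold change was 0.33, next to 0.32 over all genes. Over 15 alternatives the number of passing genes lay between 10 and 16.

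Among the 14 other transporters found, 3 of 12 tested genes rose and 1 fell. That is 33.3% of those tested, near the 28.9% of all tested genes. SLC2A9, a transporter of urate that is also reported to carry hexoses, was also close to absent with normal chow. Its level was 0, 0 and 0.0131 FPKM with normal chow and 2.64, 1.28 and 1.25 FPKM with the HFCF diet. No NC pig came near the HFCF range, and the log2 fold change on the log2(FPKM + 0.1) scale was 4.05 (standard error 0.39), or 3.71 without the first HFCF pig. The gene passed the filter on low values only through the HFCF pigs, so it had to differ to be tested, and its call, counted among the 3, is no support for a difference. The size was 1.40 with a pseudocount of 1, 6.93 with 0.01 and 5.43 with rescaling to TPM.

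SLC50A1, a sugar transporter of the SWEET type, rose from 10.5 ± 0.85 to 17.0 ± 0.48 FPKM (SD, n = 3 each; log2 fold change 0.69, adjusted p = 0.0113, limma). It lost its call with median-ratio scaling and with rescaling to TPM. SLC5A10, a sodium-coupled carrier of mannose and fructose, rose from 0.858 ± 0.106 to 2.07 ± 0.68 FPKM (SD, n = 3 each; log2 fold change 1.14, adjusted p = 0.0295, limma). That call was lost in 10 of 15 alternatives, among them the 3 scalings and the removal of any one pig other than the second HFCF pig. SLC5A9 fell from 0.759 ± 0.381 to 0.184 ± 0.135 FPKM (SD, n = 3 each; log2 fold change -1.63, adjusted p = 0.049, limma), a call not kept in 8 of 14 alternatives, which were both other pseudocounts, no filter on low values and the removal of any pig but the third HFCF pig.

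The other SLC2A genes did not pass. SLC2A10 averaged 3.33 ± 0.83 FPKM with normal chow and 4.55 ± 1.16 FPKM with the HFCF diet, and SLC2A11 0.796 ± 0.276 and 1.20 ± 0.12 FPKM (SD, n = 3 each). SLC2A12 averaged 1.74 ± 0.74 and 0.924 ± 0.479 FPKM (SD, n = 3 each), and its log2 fold change of -0.88 became -1.48 and passed with quantile normalization (adjusted p = 0.0489, limma). SLC2A13 stayed at or under 0.202 FPKM in every pig. SLC2A2 and SLC2A7, carriers that also accept fructose, were too low to be tested, with SLC2A2 at no more than 0.00769 FPKM and SLC2A7 listed at 0 in all 6 pigs.

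Among the enzymes of hexose and fructose phosphate metabolism (18 of 19 found, 14 tested), 3 rose and 1 fell. That is 28.6% of the tested enzymes, about the 28.9% of all tested genes. HK3, a hexokinase found mainly in white blood cells, measured 2.36, 4.38 and 3.03 FPKM in the NC pigs and 33.5, 9.61 and 8.30 FPKM in the HFCF pigs (log2 fold change 2.10, adjusted p = 0.026, limma). It was 1.47 without the first HFCF pig (adjusted p = 0.0183, limma), and the call was lost in 5 of 15 alternatives, among them the removal of the first or the third NC pig, quantile normalization and no filter on low values. HK2, the inducible hexokinase, measured 0.574, 1.14 and 0.971 FPKM in the NC pigs and 6.33, 4.57 and 1.48 FPKM in the HFCF pigs (log2 fold change 1.91, adjusted p = 0.0372, limma), a call not kept in 10 of 15 alternatives, among them the 3 scalings, no filter on low values and the removal of any one pig other than the third HFCF pig. ADPGK, an ADP-dependent glucokinase, rose from 2.54 ± 0.25 to 4.92 ± 0.76 FPKM (SD, n = 3 each; log2 fold change 0.92, adjusted p = 0.0149, limma), a call lost in 5 of 15 alternatives, among them the 3 scalings and the removal of the first NC pig. MPI, which interconverts mannose and fructose phosphates, fell from 9.30 ± 1.57 to 4.73 ± 0.82 FPKM (SD, n = 3 each; log2 fold change -0.96, adjusted p = 0.0144, limma) and kept its call in all 15 alternatives. HK1, the general hexokinase, had a log2 fold change of -0.14 and did not pass.

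**Figure D3:**
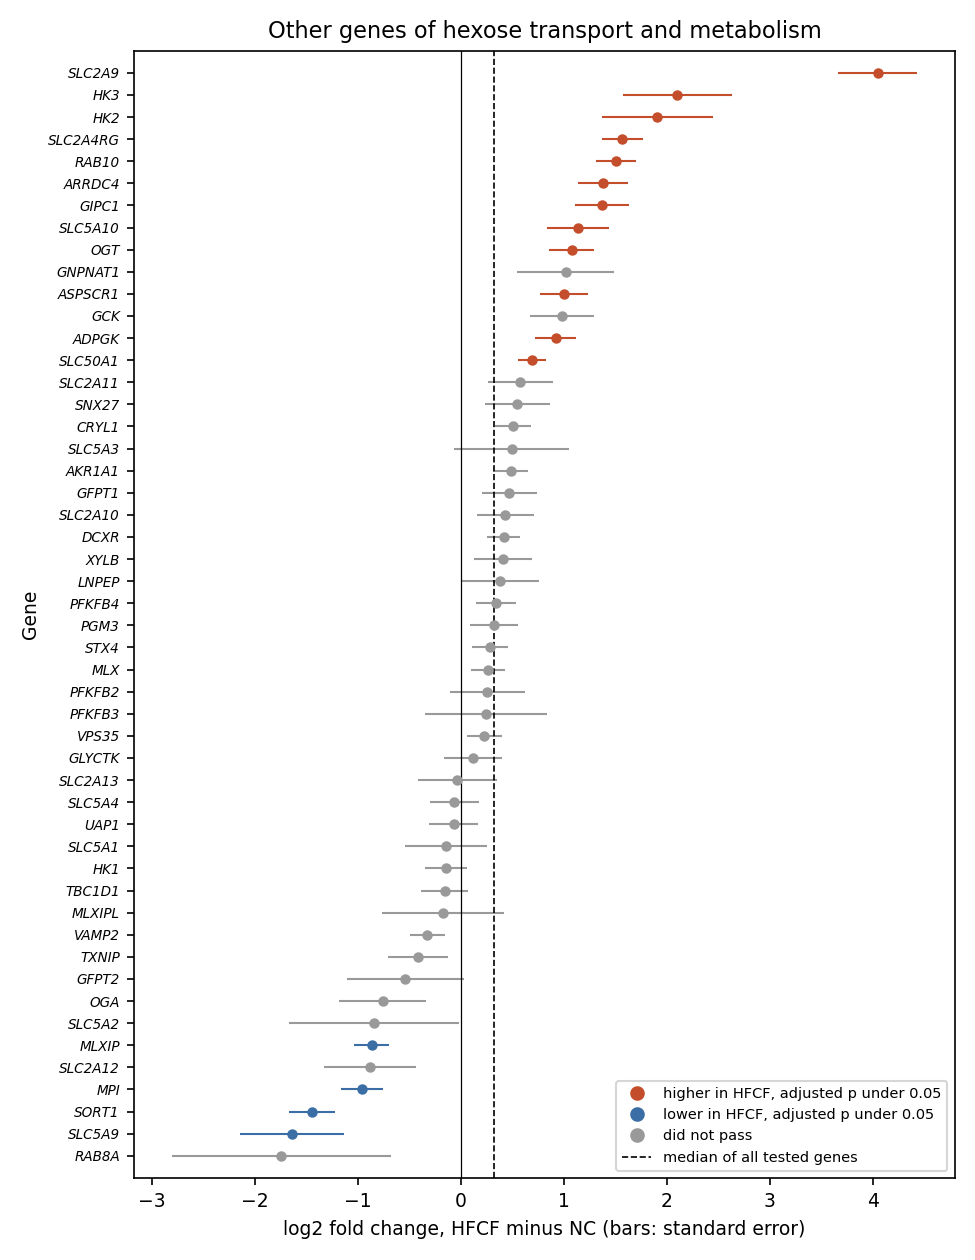
Log2 fold change (HFCF minus NC) of the 50 tested genes of hexose transport and metabolism outside the 9 genes above, one row per gene, with bars for the standard error, colours for the call and a dashed line at the median of all tested genes, 0.32. SLC2A9 stands farthest to the right at 4.05, and 12 genes lie to the right and 4 to the left among those that passed.

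Genes that move, retain or regulate hexose carriers (14 of 15 found and tested) held 5 that rose and 1 that fell. That is 42.9% of them, where 28.9% of all tested genes passed, 22.8% as higher and 6.16% as lower. Whether the list differs from other genes was not tested. RAB10, a small GTPase of SLC2A4 vesicles, measured 6.64, 9.18 and 9.69 FPKM in the NC pigs and 27.2, 23.6 and 21.7 FPKM in the HFCF pigs (log2 fold change 1.51, adjusted p = 0.00279, limma). SLC2A4RG, a regulator of SLC2A4 transcription, rose from 3.86 ± 0.70 to 11.6 ± 1.64 FPKM (SD, n = 3 each; log2 fold change 1.57, adjusted p = 0.00284, limma). SORT1, the sorting receptor sortilin that also serves SLC2A4 vesicles, fell from 14.9 ± 1.74 to 5.50 ± 1.48 FPKM (SD, n = 3 each; log2 fold change -1.45, adjusted p = 0.0051, limma). ARRDC4, an arrestin-like protein that removes glucose carriers from the surface, rose from 3.11 ± 0.45 to 8.38 ± 2.42 FPKM (SD, n = 3 each; log2 fold change 1.38, adjusted p = 0.0079, limma). These 4 genes kept their calls in all 15 alternatives. GIPC1 (log2 fold change 1.37, adjusted p = 0.00998, limma) and ASPSCR1 (1.001, adjusted p = 0.0195, limma) also rose. GIPC1 lost its call only with quantile normalization, and ASPSCR1 lost it in 7 alternatives, among them the removal of the second or the third NC pig or of the first or the second HFCF pig. TXNIP, a relative of ARRDC4 that responds to glucose, was 251.1 to 524.0 FPKM in the NC pigs and 232.2 to 329.5 FPKM in the HFCF pigs and did not pass.

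Of the carbohydrate response factors, MLXIP fell from 27.9 ± 4.15 to 15.2 ± 1.76 FPKM (SD, n = 3 each; log2 fold change -0.87, adjusted p = 0.0104, limma) and kept its call in all 15 alternatives. MLXIPL and MLX did not pass. Among the 7 genes of the hexosamine pathway, which draws on fructose 6-phosphate to modify proteins with N-acetylglucosamine, OGT alone passed. That is 14.3% of them, where 28.9% of all tested genes passed. OGT rose from 15.3 ± 3.76 to 31.9 ± 4.84 FPKM (SD, n = 3 each; log2 fold change 1.08, adjusted p = 0.0124, limma), a call that was not kept without the filter on low values.

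Since the macrophage markers differed so widely between the groups, the levels of the 9 genes and of SLC2A9, HK2, HK3 and SLC5A10 were also set against their sum in the same pig. On this scale 11 of the 13 genes were lower in the HFCF pigs and 2, SLC2A5 and SLC2A9, were higher, with no overlap in any of the 13. Of all 15384 tested genes, 91% were lower without overlap on this scale and 0.735% were higher, so nothing is read from the 11 lower genes. Nothing is read from the 2 higher ones either, since SLC2A5 was chosen on the same comparison and SLC2A9 was taken up with its values known and passed the filter only through the HFCF pigs. Per 100 FPKM of summed macrophage markers, SLC2A5 measured 0, 0.155 and 0.251 FPKM in the NC pigs and 1.53, 1.23 and 1.43 FPKM in the HFCF pigs. These values only describe the pigs, and whether SLC2A5 follows the macrophage markers was not tested. SLC2A9 measured 0, 0 and 0.0218 FPKM per 100 FPKM of these markers in the NC pigs and 0.145, 0.161 and 0.177 FPKM in the HFCF pigs. The 11 lower genes included HK3, at 4.62, 9.03 and 5.04 FPKM in the NC pigs and 1.84, 1.21 and 1.18 FPKM in the HFCF pigs. AKR1B1 was also lower on this scale in the HFCF group, at 6.35, 11.1 and 12.3 FPKM against 51.4, 52.3 and 57.7 FPKM. KHK ranged from 6.43 to 8.72 FPKM with normal chow and from 0.269 to 0.8004 FPKM with the HFCF diet. Against the smooth muscle markers, 10 of the 13 genes were higher in the HFCF pigs without overlap, against 61.8% of all tested genes (1.55% were lower), and SLC2A4, TKFC and SORD overlapped. Nothing is read from this count either, since the 13 genes were chosen with results of the same contrast known. Per 100 FPKM of smooth muscle markers, AKR1B1 was 0.116, 0.139 and 0.218 FPKM in the NC pigs and 1.45, 0.924 and 0.673 FPKM in the HFCF pigs. The markers of the small intestinal enterocyte, the cell type in which SLC2A5 is best known, summed to no more than 0.493 FPKM in any pig (5 of 6 found), with FABP2 and SI listed at 0 in all 6 pigs. These low sums did not overlap between the groups, at 0.00639 to 0.0694 FPKM with normal chow and 0.158 to 0.493 FPKM with the HFCF diet, and the part of this in the SLC2A5 values was not tested.

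**Figure D4:**
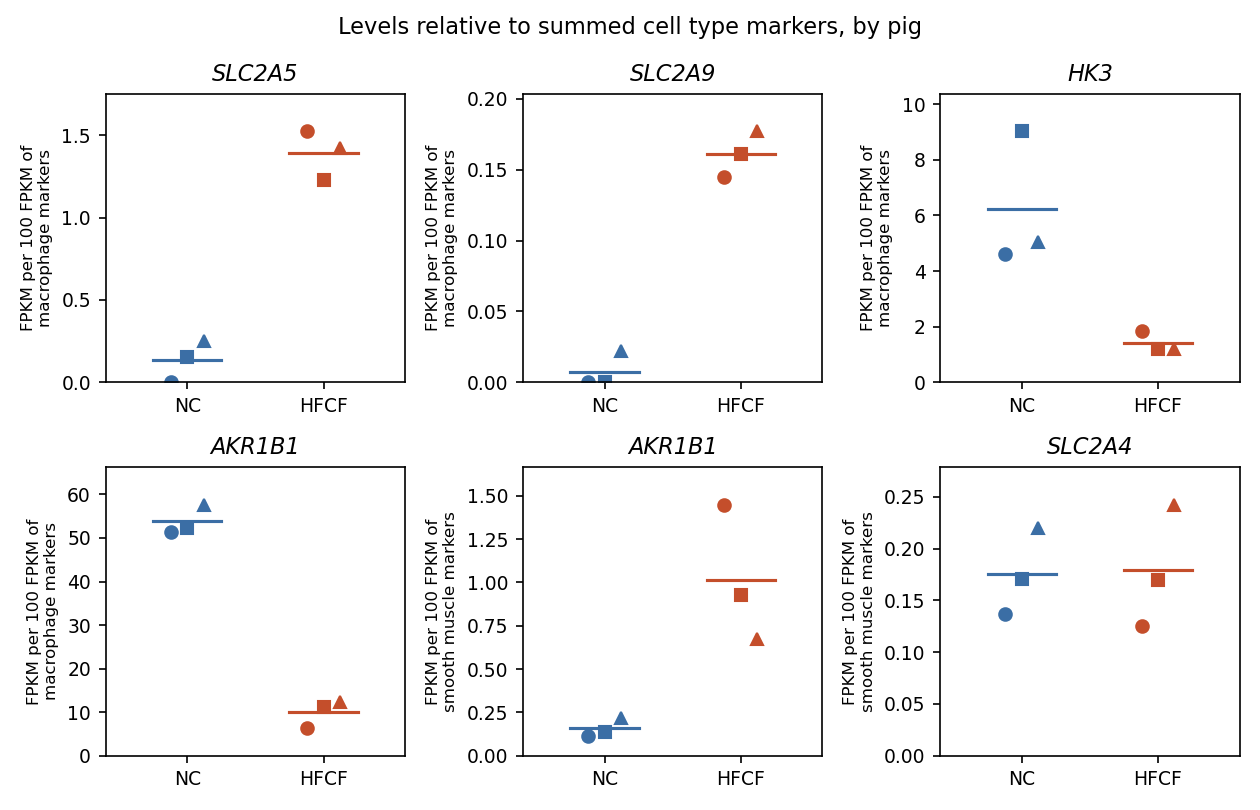
Level of a gene divided by the summed level of macrophage or smooth muscle markers in the same pig, in FPKM per 100 FPKM of markers on axes that start at 0, with one point per pig and a bar at the group mean. SLC2A5 and SLC2A9 are higher with the HFCF diet and do not overlap on the macrophage scale, HK3 and AKR1B1 are lower there, and the SLC2A4 values of both groups overlap on the smooth muscle scale.

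The genes whose profile over the 6 pigs was most like that of SLC2A5 were sought among 9599 uniquely named genes averaging at least 1 FPKM, by the root mean square difference between centred log2(FPKM + 0.1) values. The nearest were TREM2 (0.29), a lipid receptor of macrophages, APOE (0.41), the apolipoprotein secreted by foam cells, MCOLN3 (0.45), an endolysosomal cation channel, CXCL14 (0.46), a chemokine, and AMBN (0.55), an enamel matrix protein. TREM2 measured 0.150, 0.185 and 0.340 FPKM in the NC pigs and 40.6, 23.7 and 17.3 FPKM in the HFCF pigs. MCOLN3 measured 0.0291, 0.107 and 0.349 FPKM in the NC pigs and 19.6, 7.76 and 9.75 FPKM in the HFCF pigs. Of the HFCF pigs the second was its lowest, as with SLC2A5 and AMBN, while the third was lowest for TREM2, APOE and CXCL14. The macrophage marker CD68 took place 14 at 0.76. Of the 6 other members compared, AKR1B1 was nearest at place 594 (2.39) and SLC2A4 most distant at place 9133 (3.797). SLC2A3, which carries no symbol of its own, and SORD and SLC2A9, which averaged under 1 FPKM, were left out of this comparison. SLC2A9 was also close to absent with normal chow, and how near its profile lies to that of SLC2A5 is not given here. The likeness of these profiles comes mainly from the difference between the groups, which served to choose SLC2A5.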

How the data were processed

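Total RNA of the abdominal aorta of 3 NC and 3 HFCF pigs was sequenced as paired-end reads. The authors trimmed reads with cutadapt 1.9, aligned them with HISAT2, quantified genes with StringTie and deposited 1 table of FPKM values. The methods name an earlier genome build than the reference names used here, so no coordinates are given. A deposited value of 0.0001 FPKM stands for no reads and was read as 0. Symbols came from the table, and for rows without one from the NCBI gene number in the description or the gene ID.

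The 15384 genes averaging at least 0.1 FPKM were fitted on the log2(FPKM + 0.1) scale in limma 3.58.1 under R 4.3.3 (diet alone in the model, trended eBayes, two-sided, Benjamini-Hochberg adjustment over all tested genes). The study's general statistics name another two-group test, and limma was chosen because it shares the spread over genes. An FPKM value is relative to the rest of its library, and read counts were not used here. Precision came from the spread among 3 pigs. The labels do not say how the libraries were batched.

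The members and lists were chosen with earlier results of these data known. Named genes were the members, the listed genes with an adjusted p under 0.05 and a mean of at least 1 FPKM, the other SLC2A genes, and the 5 nearest profiles. SLC5A9, which passed with a lower mean, and HK1, TXNIP, MLXIPL, MLX and the genes beside SLC2A5 were named after their values were seen. Alternatives were pseudocounts of 1 and 0.01, other filters, rescaling to TPM, median-ratio scaling, quantile normalization, a replicate block, untrended eBayes, and removal of each pig. The fit was tested on simulated data for HFCF against NC with 15384 genes. There 200 of 200 genes changed by 3 on the log2 scale were recovered with 15 false calls. The changed genes were drawn only from those with a spread below the median. This recovery therefore cannot tell how often smaller differences, or differences in genes with a wider spread, are found. T cell, B cell, endothelial and lipid-laden macrophage markers were also listed: 1 of 5, 1 of 4, 0 of 8 and 3 of 6 tested genes passed, all of these as higher, as did 22.8% of all tested genes. T cell sums were 0.732 to 0.906 FPKM in the NC pigs and 2.41 to 10.02 FPKM in the HFCF pigs. B cell sums were 5.99 to 10.26 and 34.6 to 43.7 FPKM, and lipid-laden macrophage sums 133.3 to 156.7 and 224.0 to 486.6 FPKM. These sums did not overlap between the groups, while the endothelial sums did. What they contribute was not tested. Sequences were not used here, and 1 listed gene is not reported here.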

Additional observations from a re-analysis of the deposited data

How the results depend on the processing

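The log2 difference of SLC2A5 was positive in all 15 alternatives. It was 3.81 with a pseudocount of 1, 8.08 with 0.01, and 5.94 to 6.74 with each pig left out in turn. SLC2A3 turned to -0.0022 with median-ratio scaling. With quantile normalization SORD turned to -0.32, SLC2A10 to -0.041 and SLC2A11 to -0.10. SLC2A13 was 0.14 without the first NC pig and 0.10 without the first HFCF pig, against -0.03 with all pigs, and lay between -0.19 and 0.14 over the removal of single pigs. Of the 16 other pathway genes that passed, 7 kept their call and all 16 their direction in every alternative in which they were tested. The number that passed was 10 without a filter on low values, and the number that passed as higher was 7 without that filter, with median-ratio scaling, with quantile normalization and with rescaling to TPM.

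Over all tested genes, 4452 passed, 3504 higher and 948 lower. Without a filter 2514 passed (1932 higher, 582 lower). Median-ratio scaling gave 2035 higher and 1982 lower, quantile normalization 1748 and 1782, and rescaling to TPM 2146 and 1539. These scalings moved the median log2 difference of all genes from 0.32 to -0.0097, -0.075 and 0.069. With each pig left out, 2421 to 3596 genes passed, with 1979 to 2815 higher and 442 to 786 lower; the first NC pig gave 2421 and the second 2883. The deviations of same-numbered pigs correlated at 0.02, -0.08 and -0.07 across genes, so no large shift shared by replicate number was seen. The labels do not say whether same-numbered pigs were matched, and these correlations cannot tell. With the replicate number as a block, 2772 genes passed (2232 higher, 540 lower), and 4 of the 16 other pathway genes (SLC5A10, HK2, HK3 and ADPGK) lost their call. The causes of these shifts were not tested. The reads behind values near 0, such as those of SLC2A5 in the NC pigs, are not known.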

Other observations

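In the RefSeq gene table of the pig (Sscrofa11.1), SLC2A5 lies between SLC2A7 and GPR157 among protein-coding genes. CA6 and ENO1 follow on the side of SLC2A7, and H6PD and SPSB1 on the other side. SLC2A7, a related hexose carrier, and CA6, a secreted carbonic anhydrase, were listed at 0 in all 6 pigs. ENO1, the glycolytic enolase, averaged 128.0 ± 15.2 FPKM with normal chow and 132.5 ± 5.70 FPKM with the HFCF diet (SD, n = 3 each; adjusted p = 0.799, limma). GPR157, an orphan receptor, averaged 2.003 ± 0.96 and 1.74 ± 0.81 FPKM (SD, n = 3 each; adjusted p = 0.756, limma). H6PD, the hexose 6-phosphate dehydrogenase of the endoplasmic reticulum, had an adjusted p of 0.531 and SPSB1 of 0.253 in limma. The groups overlapped in ENO1, GPR157, H6PD and SPSB1, where 48.2% of all tested genes showed no overlap.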
